A study of Mus musculus with 12 samples.

Results

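The 33 genes described here make the enzymes and regulators of cholesterol synthesis, fatty acid synthesis and the desaturation and elongation of fatty acids. They were chosen by name from a list of the pathway, with earlier results of these data known, and all 33 were found among the 54022 genes of the deposited tables. All 33 also passed the filter on low counts, as did 16222 genes in all. The cells were MIN6, a mouse insulinoma line that secretes insulin, labelled wild type, and every library comes from this 1 cell line. Cultures were given vehicle or TMAO (trimethylamine N-oxide, a metabolite that the liver makes from gut-derived trimethylamine) at 100 nM for 18 h, and each treatment was followed by low or high glucose. RNA from 3 cultures of each of the 4 groups (low glucose with vehicle, low glucose with TMAO, high glucose with vehicle and high glucose with TMAO) was sequenced as bulk poly-A RNA. The comparisons ask whether high glucose, TMAO or their combination altered the transcripts of lipid synthesis in these β-cells.

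The sterol regulatory element-binding proteins (SREBPs) are made as precursors in the endoplasmic reticulum, where SCAP escorts them and the INSIG proteins hold the complex back while sterols are plentiful. When sterols fall, the precursor moves to the Golgi, is cleaved, and its released part enters the nucleus and switches on the genes of cholesterol and fatty acid synthesis, Insig1 included. Cholesterol is built from acetyl-CoA through mevalonate, farnesyl diphosphate, squalene and lanosterol, while ATP citrate lyase, acetyl-CoA carboxylase and fatty acid synthase turn citrate into palmitate.

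SREBPs bind promoters together with NF-Y, a factor that recognizes CCAAT, so the promoters were searched for letters of these kinds. The table of RefSeq promoter windows used here (250 bases before to 50 bases after a transcription start, build GRCm38.p6) gave 34 windows for 26 of the 33 genes, matched by symbol. Windows of Fdft1, Scd1, Fads1, Sqle, Fdps, Stard4 and Scd2 were not analysed here. CCAAT, on either strand, was in 22 of those 34 windows (64.7%), against 37.4% of all 32851 windows in the table. By gene, at least 1 window held it for 21 of 26 genes (80.8%), against 41.1% of 27025 genes. The E-box CACGTG was in 7 of the 34 windows (20.6%), against 7.15% of all windows. The core of the sterol regulatory element, searched as TCACNCCAC on both strands, was in 1 window, that of Hmgcs1, against 1.24% of all windows. These are matches of letters and not binding sites, and their share was not adjusted for base composition. The 250 bases before the start are printed for the 5 genes on which the comparisons below turn, in the direction of transcription, with matches to any of the 3 motifs in capitals (ATTGG is CCAAT on the other strand). They lie at chr5:28071162-28071411 on the plus strand for Insig1, chr13:119690101-119690350 on the plus strand for Hmgcs1, chr8:122443423-122443672 on the minus strand for Mvd, chr8:64733579-64733828 on the minus strand for Msmo1 and chr11:120824548-120824797 on the minus strand for Fasn.
Insig1: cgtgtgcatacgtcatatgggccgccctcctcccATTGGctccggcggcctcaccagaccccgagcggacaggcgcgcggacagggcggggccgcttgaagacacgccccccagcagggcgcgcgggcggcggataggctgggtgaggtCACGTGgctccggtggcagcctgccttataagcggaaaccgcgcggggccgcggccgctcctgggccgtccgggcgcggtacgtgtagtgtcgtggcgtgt
Hmgcs1: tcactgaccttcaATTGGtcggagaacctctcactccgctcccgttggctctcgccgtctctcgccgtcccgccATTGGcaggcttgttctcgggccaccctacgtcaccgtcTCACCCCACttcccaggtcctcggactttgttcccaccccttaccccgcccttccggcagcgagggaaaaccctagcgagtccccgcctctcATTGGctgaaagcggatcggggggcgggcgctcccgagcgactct
Mvd: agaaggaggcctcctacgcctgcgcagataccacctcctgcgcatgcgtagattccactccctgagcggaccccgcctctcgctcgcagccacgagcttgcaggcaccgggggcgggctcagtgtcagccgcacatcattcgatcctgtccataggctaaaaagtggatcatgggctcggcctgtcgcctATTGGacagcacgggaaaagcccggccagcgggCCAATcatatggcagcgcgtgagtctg
Msmo1: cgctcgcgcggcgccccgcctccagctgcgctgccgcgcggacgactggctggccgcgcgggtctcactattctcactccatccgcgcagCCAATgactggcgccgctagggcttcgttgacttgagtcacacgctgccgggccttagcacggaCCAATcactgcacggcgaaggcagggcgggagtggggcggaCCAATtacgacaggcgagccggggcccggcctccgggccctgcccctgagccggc
Fasn: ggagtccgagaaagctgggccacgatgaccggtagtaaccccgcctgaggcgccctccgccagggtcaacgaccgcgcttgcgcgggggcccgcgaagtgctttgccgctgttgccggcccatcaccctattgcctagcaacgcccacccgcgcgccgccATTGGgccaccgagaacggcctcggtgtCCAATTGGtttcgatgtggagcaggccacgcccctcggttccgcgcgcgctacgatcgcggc
Insig1 carried 1 CCAAT and 1 CACGTG, and Hmgcs1 carried the sterol element core between CCAAT boxes. In the Fasn promoter, the run CCAATTGG holds a CCAAT on each strand, the 2 overlapping.

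Each library held 16793162 to 22340542 counts, of which the 33 genes together took 0.814% to 0.867%. The lowest of their counts was 35, for Fdps. Mitochondrial transcripts took 1.498% to 1.755% of counts. The β-cell markers Ins1, Ins2, Iapp and Chga were each at an FPKM (fragments counted per length of gene and depth of library) of at least 1729 in every library. Of 14 markers of other pancreatic, stromal or blood cells, 6 were at 0 counts in every library (Hhex, Prss2, Krt19, Sox9, Col3a1 and Ptprc), and Ppy and Cpa1 had at most 1 count. The exception was the α-cell hormone gene Gcg, at an FPKM of 200 to 216 in low glucose and 222 to 227 in high glucose. Gcg was called higher in high glucose averaged over treatments (log2 fold change 0.11, adjusted p = 0.0102 by edgeR), as were 3 of the 9 β-cell markers: Mafa (0.54, adjusted p = 0.0026), Slc2a2 (0.095, adjusted p = 0.048) and Iapp (0.092, adjusted p = 0.041). The summed FPKM of the 14 markers, almost wholly Gcg, was 202 to 219 in low glucose and 225 to 230 in high glucose. Of the other 4 of these markers that passed the filter, none was called, and Col1a1 (-0.37 on the log2 scale) and Irx2 (-0.10) had lower and Sst (0.22) and Cela1 (0.098) higher values in high glucose. Whether the level of Gcg bears on the glucose results below was not tested. In bulk RNA, fewer cells of a type and less RNA per cell cannot be told apart.

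Levels were compared between genes as FPKM, which is per length of gene. For several genes the deposited length exceeds that of the main transcript, so the order of levels between genes depends on that length. The first step of lipogenesis stood far above the rest. Acly, the ATP citrate lyase that makes cytosolic acetyl-CoA from citrate, had a mean FPKM of 830 over the 12 libraries (lowest 794, highest 864) and ranked 17 among all genes. Acaca, the acetyl-CoA carboxylase that makes malonyl-CoA, had a mean of only 5.17, and Fasn, which builds palmitate from malonyl-CoA, a mean of 50.8. A pseudogene, Gm5182, matches 64.3% of the main Acaca transcript at 97% identity or more and had a mean count of 285 against 1669 for Acaca, so fragments of the pair could be assigned to either.

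The genes that desaturate and elongate fatty acids were mostly abundant. Among the stearoyl-CoA desaturases, Scd2 (mean FPKM 139) stood well above Scd1 (7.04) in every library. Fads2 and Fads1, the Δ6 and Δ5 desaturases of polyunsaturated fatty acids, had means of 110 and 84.3. The length given for Fads2 in the deposited table is 1508 bases against a transcript of 3150 bases in GENCODE M21, so its FPKM depends on that length. Of the elongases, Elovl5 had a mean of 55.0 and Elovl6, which acts on palmitate, a mean of 3.84.

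All 5 regulators were expressed. Insig1 (mean FPKM 69.8) exceeded Insig2 (15.8), Srebf1 (56.2) and Srebf2 (47.7) were near each other, and Scap had a mean of 16.5. The ranges of Srebf1 (52.0 to 61.6) and Srebf2 (44.0 to 52.5) overlapped narrowly.

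Cholesterol synthesis genes sat lower by FPKM. In the mevalonate branch, Pmvk (phosphomevalonate kinase) was the highest, with a mean FPKM of 27.5. Acat2 (a thiolase that makes acetoacetyl-CoA), Hmgcs1 (HMG-CoA synthase), Mvd (mevalonate diphosphate decarboxylase), Mvk (mevalonate kinase) and Idi1 (isopentenyl diphosphate isomerase) had means of 14.7, 13.9, 11.99, 9.75 and 7.69. Fdps, the farnesyl diphosphate synthase, was listed at 0.563, with a mean count of 44.9. A pseudogene, Gm3571, matches 76.8% of the main Fdps transcript and had a mean count of 153, so the level of Fdps is uncertain. For Acat2, the paralog Acat3 matches 65.6% of the transcript but had a mean count of 11.8, while Tcp1, which matches 19.8% of it, had 4408.

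In the squalene and sterol branch, Sqle, the squalene epoxidase that sets the pace of this branch, was the highest at a mean FPKM of 28.3. It was followed by the lanosterol demethylase Cyp51 (21.3), the squalene synthase Fdft1 (16.0), the sterol isomerase Ebp (15.7), the lathosterol oxidase Sc5d (11.51), the 7-dehydrocholesterol reductase Dhcr7 (8.79) and the methylsterol oxidase Msmo1 (8.71). The lanosterol synthase Lss (7.25), the sterol dehydrogenase Nsdhl (6.28), the sterol reductase Tm7sf2 (5.58) and the ketoreductase Hsd17b7 (4.44) were lowest. The deposited lengths of Msmo1, Lss, Tm7sf2 and Sqle were 6144, 10787, 3484 and 5546 bases. Their main transcripts have 2044, 4667, 1471 and 2758 bases, so their places in this order depend on the length used. Stard4, a carrier of cholesterol between membranes, had a mean of 12.7. Exons of Fdft1 share 18.3% of their bases with Ctsb on the opposite strand, a gene with a mean count of 6317, and exons of Tm7sf2 share 12.1% with Vps51 on the same strand. Since the strand setting of the counting is not given in the sources used here, the level of Fdft1 could include Ctsb fragments.

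**Figure D1:**
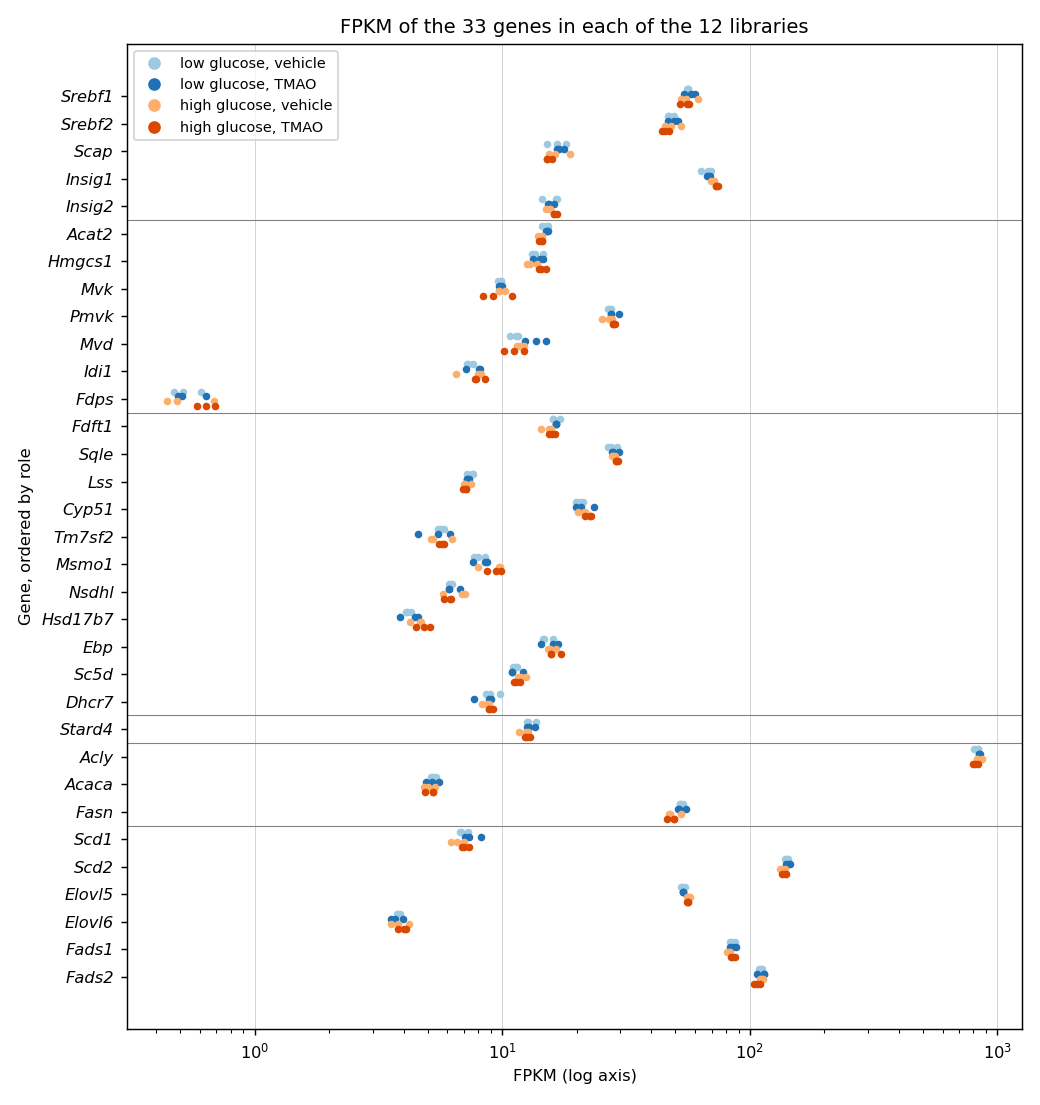
FPKM (log axis) of the 33 genes, 1 point per library, coloured by group and ordered from the top by role (regulators, mevalonate branch, squalene and sterol branch, sterol transport, fatty acid synthesis, desaturation and elongation; grey lines part the roles). Acly lay at 794 or above and Fdps at 0.692 or below in every library, and within each gene the 4 groups lay close together.

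Within groups the libraries were close: the coefficient of variation of normalized counts (counts scaled to equal TMM library size) ran from 1.20% for Elovl5 to 15.6% for Fdps, and was 2.12% for Acly. This set how small a difference could be seen. For TMAO averaged over glucose levels, the 95% interval of the log2 fold change lay wholly within ±0.25 (a rise of 18.9% or a fall of 15.9%) for 32 of the 33 genes, against 62.1% of all genes tested. Fdps was the exception, with an interval reaching 0.44.

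Averaged over both treatments, Msmo1 and Insig1 were higher and Fasn was lower in high than in low glucose, each by a small amount, and 3 of the 33 genes in all were called. The 3 called genes of 33 compare with a background of 8.19% called among all genes tested (4.13% higher and 4.06% lower; edgeR's quasi-likelihood test, adjusted p under 0.05), so the share was near that of all genes. At an unadjusted p under 0.05 there were 6 of 33, against 20.1% of all genes. The median log2 fold change of the 33 was -0.014, with 14 higher and 19 lower, against 0.0011 over all genes. With each library's trend on GC content removed, the median of the 33 was 0.0039, on the other side of 0.

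Msmo1, which removes the methyl groups of lanosterol-derived sterols, had normalized counts of 988, 922 and 895 in low glucose with vehicle and 1009, 989 and 883 in low glucose with TMAO. In high glucose they were 925, 1131 and 1123 with vehicle and 1143, 1098 and 1007 with TMAO. Of the high-glucose libraries, 1 (vehicle replicate 1) fell within the low-glucose range, and so did 1 more (TMAO replicate 3, below the highest low-glucose value of 1009). The averaged log2 fold change was 0.18 ± 0.051 (SE), a rise of 13.0%, with an adjusted p of 0.0286 by edgeR.

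Insig1, the sterol-sensitive retention protein, had normalized counts of 4074, 3959 and 3694 in low glucose with vehicle and 4009.95, 3929 and 3919 with TMAO. High glucose gave 4192, 4193 and 4069 with vehicle and 4254, 4343 and 4249 with TMAO. Only the third vehicle library of the high-glucose set lay inside the low-glucose range, just under its highest value. The averaged rise was 7.27% (log2 fold change 0.10 ± 0.031 SE, adjusted p = 0.0364 by edgeR).

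Fasn went the other way. Its normalized counts in low glucose were 11042, 10799 and 10837 with vehicle and 10641, 10592 and 11376 with TMAO, and in high glucose 10947, 9862 and 9734 with vehicle and 10181, 10228 and 9527 with TMAO. Only the first vehicle library of the high-glucose set overlapped the low-glucose libraries. The averaged log2 fold change was -0.11 ± 0.032 (SE), and Fasn fell by 7.36% (adjusted p = 0.0295 by edgeR).

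All 3 calls were made by DESeq2 too, and none of the 3 by limma on log2(FPKM + 1), where the adjusted p was 0.123 for Msmo1, 0.0511 for Insig1 and 0.0836 for Fasn. Insig1 and Fasn each also lost the call under an alternative other than limma that kept all libraries. The calls were often lost with 1 library left out: over the 12 such fits, Insig1 lost its call in 9, Msmo1 in 7 and Fasn in 6. Adjusted p ran up to 0.136, 0.0962 and 0.115 by edgeR. The log2 fold changes kept their sign, at 0.080 to 0.118 for Insig1, 0.147 to 0.222 for Msmo1 and -0.137 to -0.094 for Fasn. Such fits gave 0 to 3 calls, and 0 without low glucose, vehicle replicate 2, without low glucose, TMAO replicate 3, or without high glucose, vehicle replicate 2 or 3. Without low glucose, vehicle replicate 3, or high glucose, TMAO replicate 2 or 3, 1 call was left.

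The other genes of both pathways showed no call for this comparison. Among the regulators, Srebf1 had a log2 fold change of -0.027 (95% interval -0.10 to 0.047), Srebf2 one of -0.040 (-0.11 to 0.033). Hmgcs1 stood at -0.015 (-0.097 to 0.067), Sqle at 0.019 (-0.046 to 0.084) and Scd1 at -0.082 (-0.18 to 0.016). Of the 33 genes, 2 had 6 high-glucose libraries that did not overlap the 6 low-glucose ones, against 4.94% of all genes: Elovl5, higher at a log2 fold change of 0.069, and Acat2, lower at -0.073. Neither passed the adjusted threshold (adjusted p = 0.160 for Elovl5 and 0.342 for Acat2 by edgeR).

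**Figure D2:**
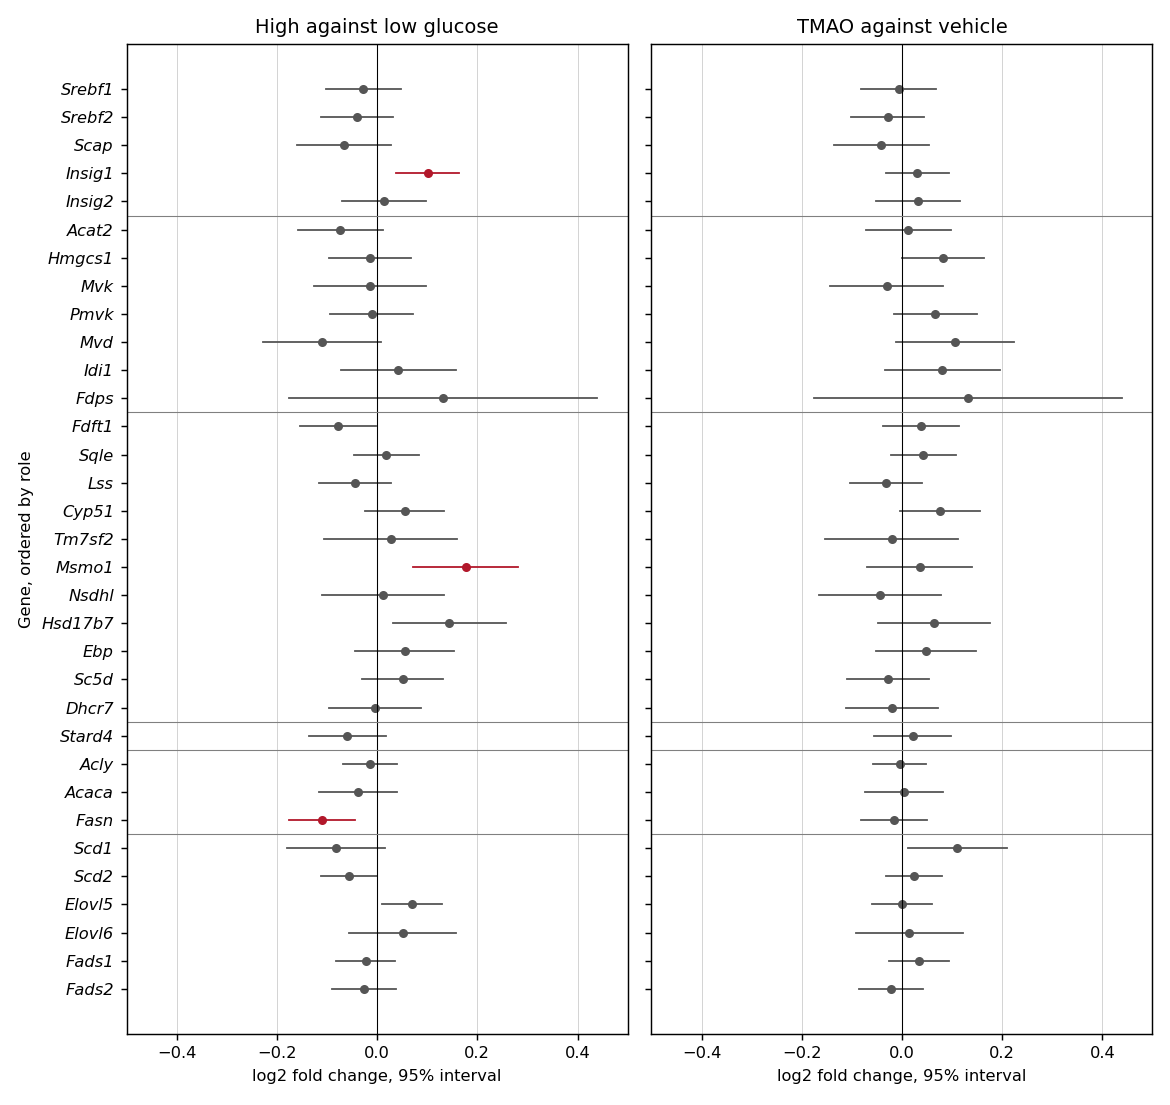
The log2 fold change (point) and its 95% interval (line) of the 33 genes for high against low glucose averaged over treatments (left) and TMAO against vehicle averaged over glucose levels (right), 6 libraries against 6 in each, ordered by role. Red marks an adjusted p under 0.05, which only Insig1, Msmo1 and Fasn reached, for glucose, and no gene for TMAO; Fdps had the widest intervals.

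With vehicle alone, high glucose gave no call among the 33 genes, against 3.30% of all genes tested. At an unadjusted p under 0.05 there were 2, Msmo1 and Fasn, against 13.0% of all genes, and DESeq2 likewise called 0 (3 at an unadjusted p under 0.05). The lowest adjusted p was 0.235, for Msmo1 (log2 fold change 0.18 ± 0.072 SE, 95% interval 0.033 to 0.33). Without high glucose, vehicle replicate 1, Msmo1 was called (0.27, adjusted p = 0.0197 by edgeR). In 4 genes the 3 libraries of one side did not overlap those of the other (Acat2 and Fdft1 lower, Elovl5 and Sc5d higher), or 12.1% of the 33 against 18.8% of all genes.

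With TMAO present, Mvd, the decarboxylase that makes isopentenyl diphosphate, was lower in high glucose, and no other gene of the 33 was called. This 1 call compares with 3.64% of all genes (1.64% lower), and 7 genes at an unadjusted p under 0.05 with 14.7%. Normalized counts of Mvd were 482, 434 and 529 in low glucose with TMAO and 356, 428 and 389 in high glucose with TMAO. The highest of the latter lay just under the lowest of the former. Mvd fell by 18.5% (log2 fold change -0.29 ± 0.081 SE, adjusted p = 0.0334 by edgeR). The call was not made by DESeq2 (adjusted p = 0.0604) or limma, and was lost without replicate 1 or 3 of either TMAO group, where the adjusted p ran up to 0.216 by edgeR. The other 6 genes at an unadjusted p under 0.05 were Insig1, Msmo1 and Hsd17b7, at 0.12, 0.17 and 0.16 on the log2 scale, and Srebf2, Scap and Fasn, at -0.10, -0.15 and -0.12. With each library's GC trend removed, the first 3 stood at 0.11, 0.15 and 0.14 and the last 3 at -0.040, -0.080 and -0.061. Of these 6, only Insig1 and Msmo1 then kept an unadjusted p under 0.05 by edgeR. The libraries of the glucose levels did not overlap for 10 of the 33 genes (30.3%), 7 of them lower in high glucose, against 18.4% of all genes.

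TMAO gave no call among the 33 genes at either glucose level or on average. In low glucose, where 1 gene of all those tested was called (0.00616%), 1 of the 33 had an unadjusted p under 0.05, against 2.20% of all genes. That gene was Mvd, with 406, 397 and 378 normalized counts with vehicle against the 482, 434 and 529 with TMAO given above. The groups did not overlap, and the log2 fold change was 0.29 ± 0.081 (SE, 95% interval 0.13 to 0.46), with an adjusted p of 0.9999 by edgeR. This comparison and that of glucose with TMAO share the low-glucose TMAO libraries, so the values of Mvd in them are not independent. Acly and Pmvk were the other genes whose libraries did not overlap, 3 of 33 (9.09%) against 6.36% of all genes, and all 3 were higher with TMAO. DESeq2 called 0 as well, with 1 gene at an unadjusted p under 0.05. The median log2 fold change of the 33 was 0.023, with 26 values above 0 (78.8%) and 7 below, against a median of 0.0011 and 50.7% above 0 among all genes.

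In high glucose, edgeR called 0 genes of all those tested (0%) with TMAO, and 1 of the 33 at an unadjusted p under 0.05 against 5.35% of all genes. Hmgcs1, the enzyme that feeds the mevalonate branch, had 1124, 1196 and 1092 normalized counts with vehicle and 1300.4, 1243 and 1216 with TMAO. All 3 TMAO libraries were above all 3 vehicle libraries. The log2 fold change was 0.14 ± 0.057 (SE, 95% interval 0.022 to 0.25), with an adjusted p of 0.910 by edgeR, so it was not called. DESeq2 called 0 of the 33, with 1 at an unadjusted p under 0.05. Libraries did not overlap for 8 of the 33 genes (24.2%), against 11.1% of all genes: Cyp51, Fads1, Hmgcs1, Insig1, Insig2, Pmvk and Sqle had higher values with TMAO and Fads2 lower ones. The median log2 fold change of the 33 was 0.031, and 29 of the 33 intervals lay within ±0.25.

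Averaged over glucose levels, TMAO again gave 0 calls among the 33 genes and 0 among all genes (0%), and 0 by DESeq2, also at an unadjusted p under 0.05 in the 33. By edgeR, 2 of the 33 had an unadjusted p under 0.05, against 3.62% of all genes. Scd1, which makes oleate from stearate, was the lowest, with a log2 fold change of 0.11 ± 0.048 (SE, 95% interval 0.012 to 0.21) and an adjusted p of 0.9999 by edgeR. Its normalized counts were 661, 623 and 617 with vehicle and 647, 747 and 671 with TMAO in low glucose. In high glucose they were 599, 638 and 567 with vehicle and 627, 672 and 637 with TMAO, so vehicle and TMAO libraries overlapped at both levels. Hmgcs1 was the other, at 0.082 ± 0.040 (SE, adjusted p = 0.9999 by edgeR). No gene of the 33 had 6 TMAO libraries apart from the 6 vehicle libraries, against 0.142% of all genes. Srebf1 stood at -0.0067 (95% interval -0.081 to 0.068), Srebf2 at -0.029 (-0.10 to 0.044), Insig1 at 0.030 (-0.033 to 0.093), Sqle at 0.042 (-0.022 to 0.11), Msmo1 at 0.035 (-0.069 to 0.14) and Fasn at -0.016 (-0.082 to 0.050) on the log2 scale. The 33 genes had a median of 0.022, with 20 higher (60.6%) and 13 lower, against 50.02% higher among all genes.

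The difference between the effect of TMAO in high and in low glucose was tested as the interaction, and it gave 0 calls among the 33 and among all genes (0%), and 0 of the 33 by DESeq2. At an unadjusted p under 0.05 there was 1 of 33 by either tool, against 3.36% of all genes by edgeR. It was Mvd, at -0.37 ± 0.12 (SE, 95% interval -0.61 to -0.13), with an adjusted p of 0.9998 by edgeR. TMAO went with a higher Mvd value in low glucose (0.29) and a slightly lower one in high glucose (-0.079), where the libraries overlapped: 429, 402 and 413 with vehicle against 356, 428 and 389 with TMAO.

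**Figure D3:**
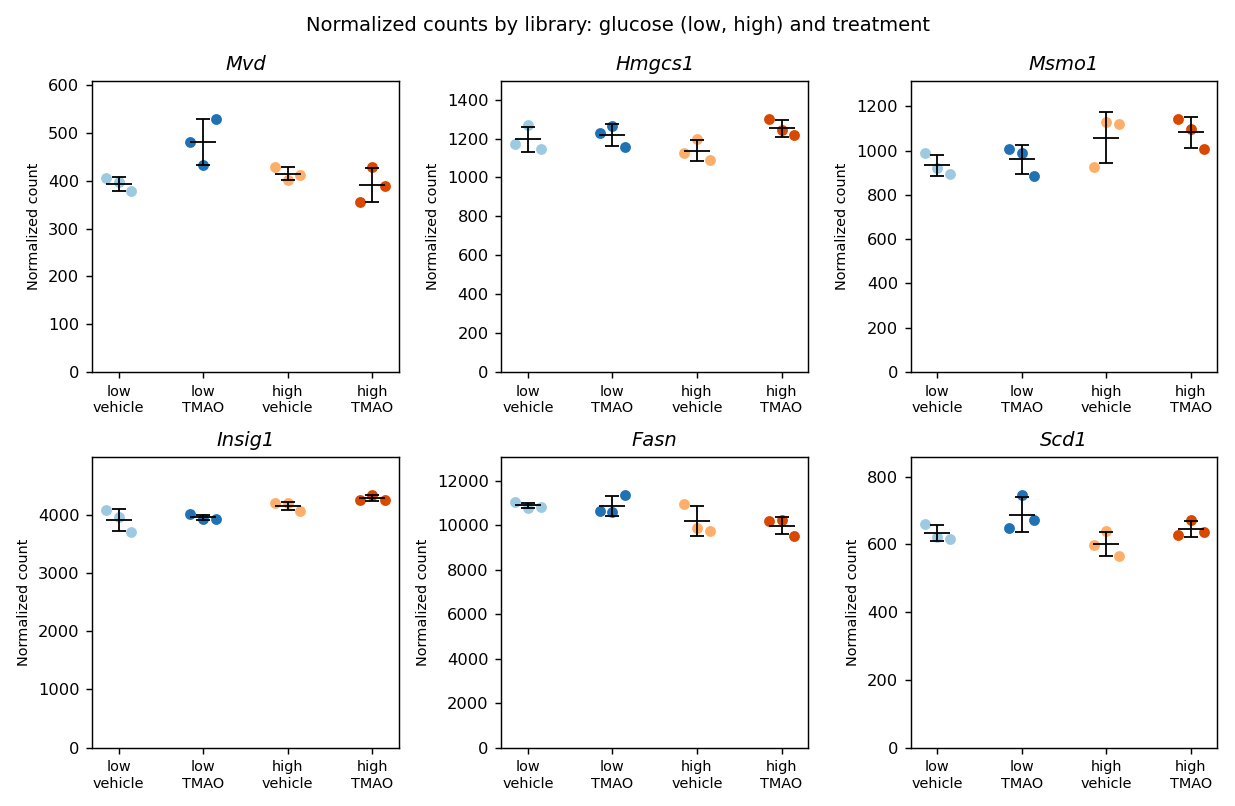
Normalized counts of 6 genes in the 12 libraries (points; replicates 1 to 3 from left to right), with the mean and SD of each group (black); the vertical axes start at 0. Mvd stood highest in low glucose with TMAO, Insig1 and Msmo1 higher in high glucose, and Fasn lower there, and Hmgcs1 and Scd1 had no call in any comparison.

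The genes differ in base composition, and their log2 fold changes moved with it in several comparisons. The GC content of the longest transcript ran from 41.9% for Idi1 to 59.1% for Scap. Across the 33 genes, GC content and the averaged glucose log2 fold change had a Pearson correlation of -0.52 (Spearman -0.51), against -0.061 (Spearman -0.12) across 15754 genes. For glucose with TMAO the value over the 33 was -0.59, and for glucose with vehicle -0.20. For TMAO at high glucose it was -0.45, for the interaction -0.45, for TMAO averaged -0.24 and for TMAO at low glucose 0.19, against -0.17, -0.15, -0.095 and 0.042 across all genes. These are descriptions across genes of the same libraries, and genes are not independent replicates. The libraries themselves differed in how counts followed GC content: the slope per 10 points of GC ran from -0.080 to -0.0048 on the log2 scale in high glucose with TMAO, and from -0.032 to 0.089 in high glucose with vehicle. The steepest positive slope was in high glucose, vehicle replicate 1, which had the highest Srebf1, Srebf2, Scap, Tm7sf2 and Acly values of the 12 libraries. The steepest negative slope was in high glucose, TMAO replicate 3, which had the lowest Srebf1, Srebf2, Mvk, Acly, Fasn and Fads2 values. With each library's GC trend removed, Msmo1, Insig1 and Fasn were still called for glucose averaged over treatments, while Mvd was not called for glucose with TMAO (log2 fold change -0.22, adjusted p = 0.1003 by edgeR). The correlation across the 33 genes was then -0.33 for glucose averaged, -0.31 for glucose with TMAO, -0.063 for TMAO at high glucose and -0.12 for the interaction. The 8 genes whose libraries did not overlap for TMAO at high glucose kept their sign with the GC trend removed. Log2 fold changes were then 0.072 for Cyp51, 0.064 for Fads1, 0.11 for Hmgcs1 and 0.035 for Insig1. Insig2 stood at 0.067, Pmvk at 0.12, Sqle at 0.039 and Fads2 at -0.032. Whether GC content bears on their lack of overlap was not tested.

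**Figure D4:**
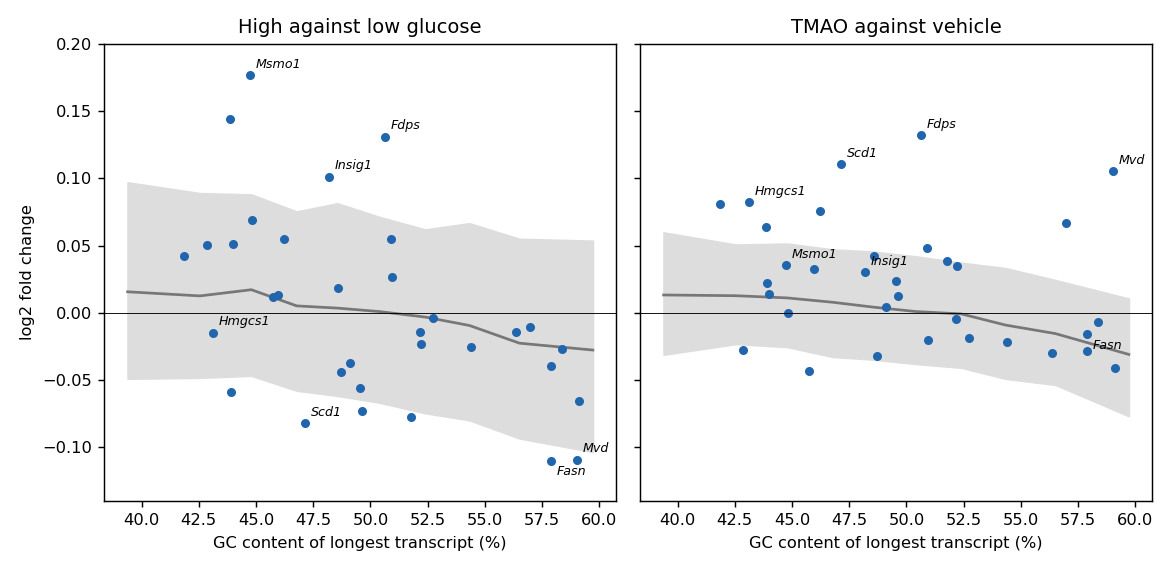
GC content of the longest transcript (%) against the log2 fold change of the 33 genes (blue points) for high against low glucose (left) and TMAO against vehicle (right), each averaged over the other factor. The grey line and band are the median and the middle quartiles of all genes in 10 bins of GC content; Msmo1 (44.7% GC) and Insig1 (48.2%) lay above the line and Fasn (57.9%) and Mvd (59.0%) below it in the glucose panel.

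Genes next to these pathways were taken from a list of 32 (further enzymes of both pathways and genes of lipid uptake, export, storage and regulation), of which 29 passed the filter. For glucose averaged over treatments 4 of the 29 (13.8%) were called, 2 higher and 2 lower, against 8.19% of all genes tested. Soat1, which esterifies cholesterol for storage, was higher by 10.9% (log2 fold change 0.15 ± 0.038 SE, adjusted p = 0.0102 by edgeR), and Nr1h2, the sterol-sensing liver X receptor β, by 20.2% (0.27 ± 0.070 SE, adjusted p = 0.0354 by edgeR). Mylip, a ubiquitin ligase that marks lipoprotein receptors for breakdown, fell by 9.80% (adjusted p = 0.0257 by edgeR). High and low glucose libraries overlapped for each of these 3 genes. With TMAO present Soat1 was the single call among the 29 (0.20 ± 0.054 SE, adjusted p = 0.0325 by edgeR), here without overlap, and 1 of 29 (3.45%) was near the 3.64% of all genes. For glucose with vehicle, TMAO at either level, TMAO averaged and the interaction, edgeR called 0 of the 29, with 4, 0, 2, 1 and 1 at an unadjusted p under 0.05 in that order (TMAO at low before high glucose). These are 13.8%, 0%, 6.90%, 3.45% and 3.45% of the 29, against 13.0%, 2.20%, 5.35%, 3.62% and 3.36% of all genes.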

How the data were processed

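Gene expression was measured by RNA-seq in MIN6 cultures that received vehicle or TMAO (100 nM, 18 h) and low (2.8 mM) or high (16.8 mM) glucose, with 3 libraries per group. Group and replicate number came from the sample titles. The glucose concentrations come from the study's scheme of the treatment for RNA-seq, which shows no duration of the glucose step; the duration stated for its insulin secretion assay was not taken over to these libraries.

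The authors deposited counts of fragments per gene, without normalization, and FPKM values computed from them by gene length and library total. The submitters' processing notes name HISAT2 2.0.5, featureCounts 1.5.0-p3, DESeq2 1.16.1 and mm10; the strand setting is not given in the sources used here. Every library column of the count and FPKM tables matched a sample.

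The 33 genes and all lists were chosen with earlier results of these data known. The counts were tested with edgeR 4.0.16 in R 4.3.3, using filterByExpr, TMM normalization and the robust quasi-likelihood F test in a model of the 4 group means, fitted on all 16222 genes that passed the filter. Adjusted p-values are Benjamini-Hochberg values over these genes, called under 0.05. The 7 comparisons were glucose with each treatment, TMAO at each glucose level, both averages and the interaction. The standard error is the log2 fold change over the square root of F. Libraries were taken as not overlapping where all normalized counts of one side lay above all of the other. Full statistics are given for genes called in any comparison, for Srebf1, Srebf2, Insig1, Hmgcs1, Sqle, Fasn and Scd1, and for the gene with the lowest p in each comparison. Genes of the neighbouring list are named where called, except that 1 called gene is not reported here.

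Alternatives changed the scaling (DESeq2 size factors in edgeR), the test (DESeq2 1.42.0, or limma 3.58.1 on FPKM values after adding 1 or 0.1 and taking log2), the filter (none, or 10 or more counts throughout) and the libraries (those of a comparison alone, or all but 1 in turn). A further fit added the replicate number as a block. Removing each library's trend on GC content or length, and on GC content together with the block, was added after the data were seen. The added pseudocount makes limma's log2 fold changes too small for low genes. Depth was 16793162 to 22340542 counts per library, so that 3 counts were at most 1.79e-05% of a library; this covers counting error only. Replicate libraries within a group differed by more than sampling noise. The submitters call the 3 libraries of a group biological replicates and do not say how the cultures were separated, so p-values measure the spread between these libraries. Coordinates and promoters are from RefSeq on GRCm38.p6, the assembly behind mm10. Transcript GC content, exon overlaps and near-identical copies (97% identity over at least 100 bases) are from GENCODE M21. The scripts were tested on simulated counts. Figures were drawn with matplotlib.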

Additional observations from a re-analysis of the deposited data

How the results depend on the processing

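Among the 33 genes, TMAO at low glucose, at high glucose, averaged over glucose levels and its interaction with glucose gave 0 calls under every alternative run. For glucose averaged over treatments the count of 3 fell to 0 with limma on log2(FPKM + 1) and on log2(FPKM + 0.1), and was 0 to 3 with a library left out. Over all these runs Insig1 lost its call in 12, Msmo1 in 9 and Fasn in 9, of which 9, 7 and 6 left a library out. Alternatives other than limma thus also removed the calls of Insig1 and Fasn. For glucose with TMAO the count of 1 fell to 0 with DESeq2, with only the libraries of the comparison, with limma at either pseudocount, with the GC trend removed, and with the replicate block and the GC trend removed together; it was 0 or 1 with a library left out. For glucose with vehicle the count of 0 became 1 (Fasn) with the replicate block and the GC trend removed together, and was 0 or 1 with a library left out. There the median log2 fold change of the 33 genes ran from -0.019 to 0.023 with a library left out. The causes of these shifts were not tested. Same-numbered libraries did not deviate together (correlations of -0.038 to 0.21 over 18 pairs), and the replicate block alone changed no count among the 33 genes: 3 for glucose averaged, 1 for glucose with TMAO and 0 for the rest. Among the genes with full statistics, signs turned only where the gene was not called. With the GC trend removed, with or without the replicate block, TMAO averaged gave 0.0066 for Fasn and 0.018 for Srebf1, and glucose averaged gave 0.0048 for Srebf1. With a library left out, TMAO averaged ran from -0.033 to 0.012 for Fasn, -0.032 to 0.028 for Srebf1, -0.053 to 0.0021 for Srebf2 and -0.0085 to 0.063 for Msmo1, and glucose averaged from -0.036 to 0.0059 for Hmgcs1. Depth limited Fdps most, at 35 to 60 counts per library.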
